A study of Mus musculus with 2 samples.

Results

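The D cyclins, their kinase partners and the inhibitors of these kinases were followed in cultured mouse germ cells as 10 genes chosen by name from the 32285 genes measured. They were the D cyclin genes Ccnd1, Ccnd2 and Ccnd3, the kinase genes Cdk4 and Cdk6, the CIP/KIP inhibitor genes Cdkn1b (p27) and Cdkn1c (p57), the INK4 inhibitor genes Cdkn2c and Cdkn2d, and the retinoblastoma gene Rb1. All 10 were found by name, once each, in both libraries. The cells were THY-1+ germ cells, which are enriched for spermatogonial stem cells (SSC), established from testes of male C57 LacZ pups and kept on a layer of STO fibroblasts, a mouse cell line that serves as feeder. An FGF9‐treated library (20 ng/ml, 48 h) was compared with a control library (0 ng/ml, 48 h), with 1 library per treatment. For both libraries the passage entry of the labels gives 9 to 12. The source name of the FGF9‐treated sample gives a range that ends later, and the study's methods give passage 12. The labels of both also give a growth medium that held GDNF (20 ng/ml), its coreceptor GFRA1 (150 ng/ml) and FGF2 (1 ng/ml). The labels do not settle whether these factors stayed in the medium during the 48 h, and the study's methods describe a change to medium with either FGF9 or albumin. Read that way, the control cells went without GDNF and FGF2 as well as without FGF9, and the ratios compare FGF9 alone with no growth factor.

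D cyclins are made in response to growth signals and bind CDK4 or CDK6. The active kinase phosphorylates the retinoblastoma protein, which then releases E2F factors, and these switch on genes of DNA synthesis. INK4 proteins bind CDK4 and CDK6 themselves and keep them from the cyclin, while the CIP/KIP proteins p27 and p57 inhibit mainly cyclin E and cyclin A kinases and also bind cyclin D complexes. In the mouse testis cyclin D2 is known from spermatogonia, and mice that lack both Cdkn2c and Cdkn2d are infertile as males.

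Germ cells were taken as barcodes with at least 2000 genes, at most 20% mitochondrial UMIs and under 40 UMIs of Vim and S100a6 together, and feeder cells as those with 40 or more. A UMI marks 1 captured transcript. This gave 4537 FGF9‐treated germ cells with a median of 13067 UMIs each, and 4157 control germ cells with a median of 14824. Feeder cells numbered 63 in the FGF9‐treated and 31 in the control library. Only 6 FGF9‐treated and 5 control cells held 20 to 79 UMIs of Vim and S100a6, near the limit. Of 8 germ cell markers all 8 were lower in feeder cells of both libraries, and of 10 fibroblast markers all 10 were lower in germ cells. The fibroblast markers in germ cells stood at a median of 0.851% of their feeder cell level in the FGF9‐treated library (range 0.0481 to 6.71%) and 0.578% in the control library (range 0.0161 to 5.78%). Their summed level in germ cells was 62.3 CPM in the FGF9‐treated and 60.6 CPM in the control library, CPM being the usual scaling of UMIs to the total of the class. Feeder cells carried germ cell markers at a median of 5.89% of the germ cell level in the FGF9‐treated and 21.6% in the control library. The libraries shared 11 barcodes, 10 of them among germ cells.

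There being 1 library for each treatment, the treatments could not be tested against each other. Every interval below is a 95% interval of counting error only, so "higher" and "lower" describe these libraries and not treated cultures in general.

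The 3 D cyclin genes carry the main result, and the start of each coding sequence shows what their proteins share. Each line gives the opening 60 bases of the coding sequence, read in the GENCODE transcripts Ccnd1-201, Ccnd2-201 and Ccnd3-202, with capitals for the codons of the short motif, leucine, any residue, cysteine, any residue and glutamate, by which D cyclins dock on the retinoblastoma protein.
Ccnd1: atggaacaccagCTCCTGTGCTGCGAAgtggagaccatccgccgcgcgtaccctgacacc
Ccnd2: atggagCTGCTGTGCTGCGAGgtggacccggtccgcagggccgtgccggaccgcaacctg
Ccnd3: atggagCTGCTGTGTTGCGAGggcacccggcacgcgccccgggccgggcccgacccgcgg
The motif began at codon 5 of Ccnd1 and at codon 3 of Ccnd2 and Ccnd3, counted from the start codon. Over the whole coding sequences, 72.4% of aligned bases were identical between Ccnd1 and Ccnd2, 68.8% between Ccnd1 and Ccnd3 and 70.7% between Ccnd2 and Ccnd3. The last 500 bases of these transcripts, where 3′ reads fall, shared 0 words of 31 bases in any pair. In mm10 the genes lie at chr7:144929931-144939925 (Ccnd1, minus strand), chr6:127125162-127152193 (Ccnd2, minus strand) and chr17:47505051-47599691 (Ccnd3, plus strand). On the opposite strand, Ccnd1 overlaps LTO1, Ccnd2 overlaps Gm43126 and 9330179D12Rik, and Ccnd3 overlaps Bysl. Whether reads were counted by strand is not given in the sources used here.

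Germ cells of both libraries used Ccnd2 above all, and every D cyclin gene was higher in the FGF9‐treated library. Ccnd2 stood at 297 CPM (19901 UMIs) in FGF9‐treated germ cells and 171 CPM (11553 UMIs) in control germ cells, a log2 ratio of 0.80 (0.76 to 0.83), which is 1.74-fold. Ccnd3 stood at 81.1 CPM in FGF9‐treated and 62.8 CPM in control germ cells, a log2 ratio of 0.37 (0.31 to 0.43). Ccnd1 had the lowest level and the largest ratio of the D cyclins, 57.0 CPM (3822 UMIs) in FGF9‐treated and 16.7 CPM (1133 UMIs) in control germ cells, a log2 ratio of 1.77 (1.67 to 1.86) or 3.40-fold. The summed D cyclin level was 435 CPM in FGF9‐treated and 250.2 CPM in control germ cells, a log2 ratio of 0.80 (0.77 to 0.82).

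**Figure D1:**
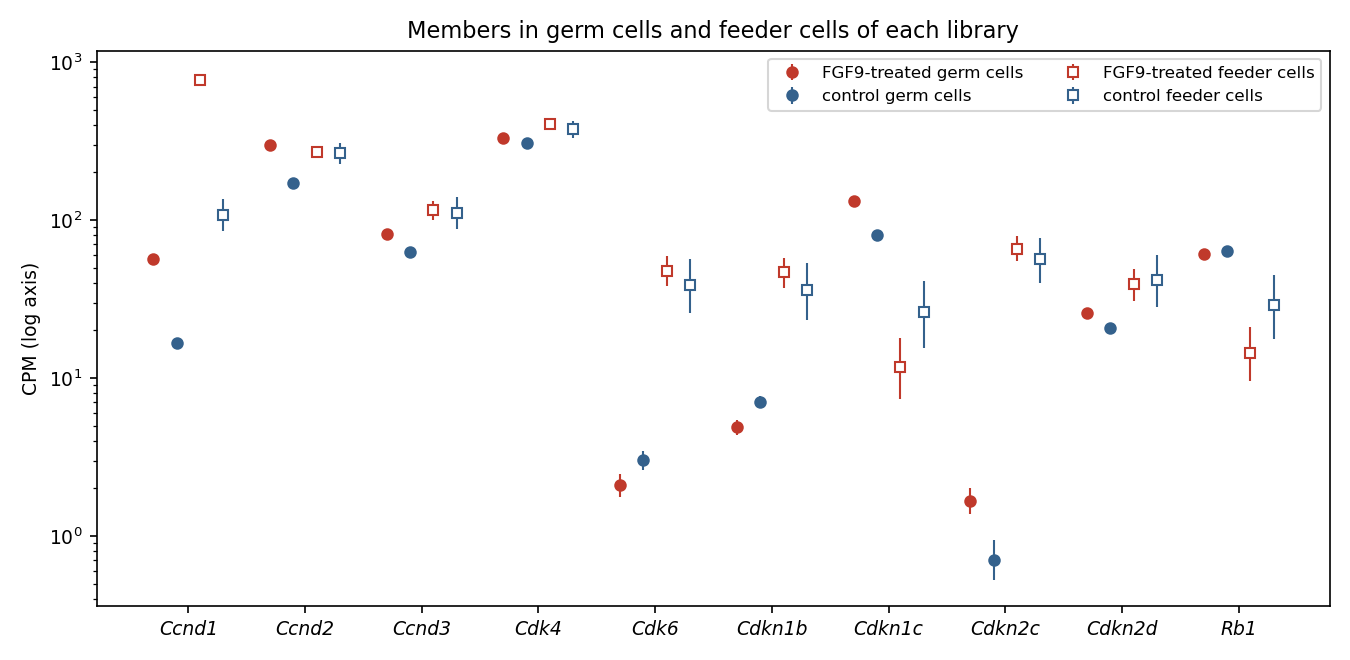
Level of each gene in CPM on a log axis, with red for the FGF9‐treated and blue for the control library, filled circles for germ cells and open squares for feeder cells; bars are exact Poisson 95% intervals of counting error. Ccnd2 and Cdk4 are the highest in germ cells, Ccnd1 reaches 775 CPM in FGF9‐treated feeder cells, and Cdkn1c and Rb1 are the genes whose germ cell points lie above both feeder cell points.

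Ccnd2 gave close to the same share of D cyclin UMIs in both libraries, and the remainder was divided differently. Its share was 68.2% (67.7 to 68.8) in FGF9‐treated and 68.2% (67.5 to 68.9) in control germ cells. Ccnd3 gave 18.7% (18.2 to 19.1) of D cyclin UMIs in FGF9‐treated and 25.1% (24.5 to 25.8) in control germ cells, and Ccnd1 gave 13.1% (12.7 to 13.5) in FGF9‐treated and 6.69% (6.32 to 7.08) in control germ cells. A UMI is counted once per transcript near its 3′ end, so these shares were not divided by length. The principal transcripts differ in length, with 6330 bases for Ccnd2, 3740 for Ccnd1 and 2113 for Ccnd3. Per kilobase, an alternative added after the data were seen, Ccnd2 stood at 46.9 CPM, Ccnd3 at 38.4 and Ccnd1 at 15.2 in FGF9‐treated germ cells. In control germ cells Ccnd3 then led with 29.7 CPM per kilobase, against 26.96 for Ccnd2 and 4.48 for Ccnd1. The lead of Ccnd2 over Ccnd3 in control cells thus holds per transcript and turns per kilobase, while Ccnd1 was lowest on both scales in both libraries.

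**Figure D2:**
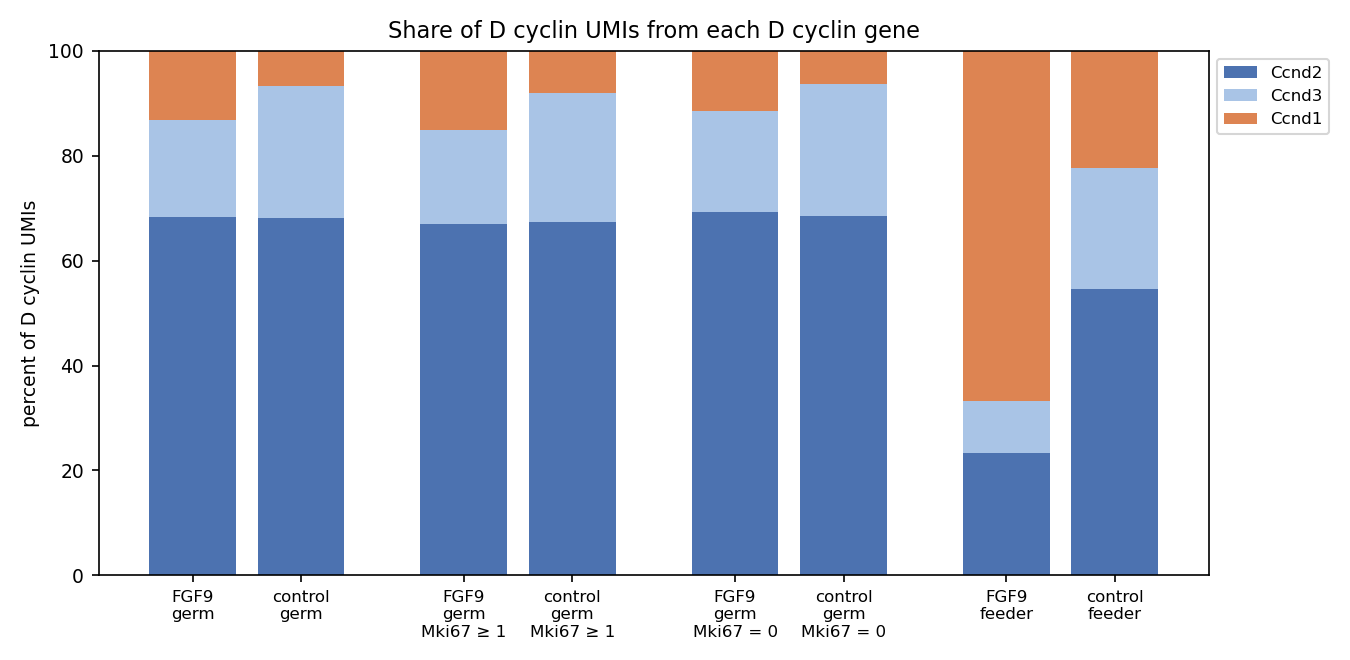
Percent of D cyclin UMIs that came from Ccnd2, Ccnd3 and Ccnd1 in all germ cells, in germ cells with and without a UMI of Mki67, and in feeder cells, with the FGF9‐treated library left of the control in each pair. Ccnd2 takes 66.9 to 69.3% in every germ cell bar, whereas Ccnd1 takes 66.8% in FGF9‐treated feeder cells and 22.4% in control feeder cells.

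Ccnd1 led the D cyclins in FGF9‐treated feeder cells and Ccnd2 in control feeder cells. Ccnd1 was 775 CPM (1445 UMIs) in the 63 FGF9‐treated feeder cells and 108 CPM (75 UMIs) in the 31 control feeder cells. It made up 66.8% (64.8 to 68.8) of D cyclin UMIs in FGF9‐treated and 22.4% (18.0 to 27.2) in control feeder cells. Ccnd2 made up 23.3% (503 of 2163 UMIs) in FGF9‐treated and 54.6% (183 of 335 UMIs) in control feeder cells. Its level was close in the feeder cells of both libraries, with 270 CPM (247 to 295) in the FGF9‐treated and 264 CPM (227 to 306) in the control library. Because Ccnd1 was so abundant in FGF9‐treated feeder cells, the germ cell values are given beside it. Ccnd1 in germ cells was 7.35% (6.92 to 7.81) of its feeder cell level in the FGF9‐treated library and 15.4% (12.2 to 19.8) in the control library. Fn1, the highest of the 10 fibroblast markers in each, stood at 6.71% (6.26 to 7.21) in the FGF9‐treated and 5.78% (5.17 to 6.48) in the control library, so the intervals of Ccnd1 and Fn1 overlapped in the FGF9‐treated library and lay apart in the control library. Leaving out germ cells with 5 or more UMIs of Vim and S100a6, an alternative also added after the data were seen, gave a log2 ratio of 1.75 for Ccnd1. The part of feeder cell RNA in the Ccnd1 difference was not tested beyond these values.

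Single cells showed the same order. After thinning each cell to 5000 UMIs, which left out 22 FGF9‐treated and 16 control germ cells, a UMI of Ccnd2 was found in 71.5% (70.2 to 72.8) of FGF9‐treated and 54.1% (52.6 to 55.7) of control germ cells. Ccnd3 was found in 33.5% (32.1 to 34.9) of FGF9‐treated and 26.4% (25.1 to 27.8) of control germ cells. Ccnd1 was found in 21.8% (20.6 to 23.0) of FGF9‐treated and 7.44% (6.66 to 8.28) of control germ cells, and in 77.8% (65.5 to 87.3) of FGF9‐treated and 38.7% (21.9 to 57.8) of control feeder cells thinned alike. Without thinning, 45.9% (44.5 to 47.4) of FGF9‐treated germ cells had a UMI of Ccnd1. Collagen Col3a1, which germ cells should lack, had a UMI in 0.532% of FGF9‐treated and 0.193% of control germ cells at 5000 UMIs. Sparc, another fibroblast marker, had one in 2.79% (2.33 to 3.31) of FGF9‐treated and 2.83% (2.34 to 3.38) of control germ cells. No D cyclin was read in 15.9% (14.8 to 17.0) of FGF9‐treated and 30.7% (29.3 to 32.1) of control germ cells. Among cells with any, Ccnd2 had the most UMIs in 64.6% of FGF9‐treated and 63.9% of control cells, and Ccnd1 in 6.19% of FGF9‐treated and 3.27% of control cells. All 3 genes were read together in 5.60% of FGF9‐treated and 1.26% of control germ cells.

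Of the kinase genes, Cdk4 was abundant in germ cells and Cdk6 sparse. Cdk4, the partner of D cyclins in most cells, lies at chr10:127063534-127067920 on the plus strand and overlaps Tspan31 on the other strand. It stood at 329 CPM in FGF9‐treated and 309 CPM in control germ cells, a log2 ratio of 0.09 (0.06 to 0.12), which DESeq2 or TMM scaling moved no further than 0.12. Cdk6, at chr5:3341485-3531008 on the plus strand, stood at 2.09 CPM (140 UMIs) in FGF9‐treated and 3.03 CPM (205 UMIs) in control germ cells, a log2 ratio of -0.54 (-0.86 to -0.22). In cells thinned to 5000 UMIs its ratio was -1.10. Cdk6 in germ cells was 4.37% of its feeder cell level in the FGF9‐treated and 7.76% in the control library, which is within the range of the fibroblast markers in the FGF9‐treated and above it in the control library. Against the kinases, there were 132 D cyclin UMIs for every 100 UMIs of Cdk4 and Cdk6 in FGF9‐treated germ cells, and 80.2 in control germ cells.

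Cdk6 was higher in germ cells with Sox3, a transcription factor gene of progenitor spermatogonia, though not with this marker alone. In the FGF9‐treated library it stood at 3.28 CPM in the 1467 germ cells with a UMI of Sox3 and 1.32 CPM in the 3070 without, a log2 ratio of 1.31 (0.80 to 1.83). In the control library it stood at 3.91 CPM in the 2666 cells with Sox3 and 1.02 CPM in the 1491 without, a log2 ratio of 1.94 (1.29 to 2.67). With Kit, a marker of differentiating spermatogonia, Cdk6 gave 0.96 (0.02 to 1.79) in FGF9‐treated and 0.66 (0.18 to 1.13) in control cells. With Stra8, a gene raised by retinoic acid, it gave 0.16 (-0.72 to 0.93) in FGF9‐treated and 1.03 (0.50 to 1.53) in control cells. These splits were not matched for depth or Mki67. Cells with Sox3 were deeper, with a median of 15872 UMIs against 12082 without in the FGF9‐treated library and 15795 against 13055 in the control library. More of them also held a UMI of Mki67, 52.4% against 30.8% in the FGF9‐treated library. Within cells that lacked Mki67, Cdk6 was still higher with Sox3 in both libraries, 2.05 CPM (1.27 to 3.14) against 1.05 (0.694 to 1.53) in FGF9‐treated and 3.44 CPM (2.85 to 4.11) against 1.11 (0.655 to 1.75) in control cells. The intervals of the FGF9‐treated pair overlapped and those of the control pair did not. Sox3 was held by 1467 of 4537 FGF9‐treated and 2666 of 4157 control germ cells. Among cells with Sox3, Cdk6 stood at 3.28 CPM (86 UMIs) in the FGF9‐treated and 3.91 CPM (184 UMIs) in the control library. Among cells without it, the values were 1.32 CPM (54 UMIs) in the FGF9‐treated and 1.02 CPM (21 UMIs) in the control library. With Sox3 or without, the intervals of the libraries overlapped in Mki67-positive and in Mki67-negative cells. Overlap of separate intervals does not measure the counting error of a ratio, and no ratio between libraries was taken within these groups. Regardless of Sox3, the log2 ratio of FGF9‐treated over control was -1.01 (-1.51 to -0.52) in Mki67-negative cells. In Mki67-positive cells it was -0.46 (-0.93 to 0.02).

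The ratios of the CIP/KIP inhibitors lay in opposite directions. Cdkn1c, an imprinted gene at chr7:143458339-143461050 on the minus strand, stood at 132 CPM (8847 UMIs) in FGF9‐treated and 80.9 CPM (5475 UMIs) in control germ cells, a log2 ratio of 0.71 (0.66 to 0.75) or 1.63-fold. Thinned to 5000 UMIs, 37.9% (36.5 to 39.4) of FGF9‐treated and 27.6% (26.3 to 29.0) of control germ cells held a UMI of Cdkn1c. Feeder cells held fewer, 3.17% (0.387 to 11.0) in the FGF9‐treated and 9.68% (2.04 to 25.8) in the control library. Cdkn1b, at chr6:134920401-134925513 on the plus strand, was far lower, with 4.89 CPM (328 UMIs) in FGF9‐treated and 7.08 CPM (479 UMIs) in control germ cells, a log2 ratio of -0.53 (-0.74 to -0.33). It was read in 2.35% (1.93 to 2.83) of FGF9‐treated and 3.45% (2.92 to 4.06) of control germ cells at 5000 UMIs, against 17.5% (9.05 to 29.1) of FGF9‐treated and 12.9% (3.63 to 29.8) of control feeder cells.

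The INK4 genes were low in germ cells. Cdkn2d, at chr9:21288410-21291407 on the minus strand, stood at 25.9 CPM in FGF9‐treated and 20.9 CPM in control germ cells, a log2 ratio of 0.31 (0.21 to 0.42). Cdkn2c, at chr4:109660876-109667189 on the minus strand, gave only 112 UMIs (1.67 CPM) in FGF9‐treated and 48 UMIs (0.709 CPM) in control germ cells, a log2 ratio of 1.24 (0.74 to 1.75). Its germ cell level was 2.53% of the feeder cell level in the FGF9‐treated and 1.26% in the control library, inside the range of the fibroblast markers in both, so the germ cells' own part in these UMIs was not tested. Rb1, the target of the kinases, at chr14:73183673-73325822 on the minus strand, stood at 60.6 CPM in FGF9‐treated and 63.7 CPM in control germ cells, a log2 ratio of -0.07 (-0.13 to -0.01). Lpar6 and Rcbtb2 overlap Rb1 on the opposite strand, and Gm17233 and Mir687 overlap it on the same strand.

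Cdk4 and Rb1 were read in like shares of germ cells in both libraries, and Cdkn2d and Cdk6 differed. At 5000 UMIs a UMI of Cdk4 was found in 77.9% (76.7 to 79.1) of FGF9‐treated and 77.4% (76.1 to 78.7) of control germ cells, and of Rb1 in 25.2% (23.9 to 26.5) of FGF9‐treated and 25.6% (24.3 to 26.9) of control germ cells. Cdkn2d was found in 12.2% (11.2 to 13.2) of FGF9‐treated and 9.88% (8.98 to 10.8) of control germ cells. Cdk6 was found in 0.753% (0.522 to 1.05) of FGF9‐treated and 1.55% (1.19 to 1.97) of control germ cells, against 22.2% (12.7 to 34.5) of FGF9‐treated and 29.0% (14.2 to 48.0) of control feeder cells. The ratio of variance to mean over cells was highest for Cdkn1c and Ccnd2. At this depth the variance of the UMIs per cell, divided by their mean, was 1.55 in FGF9‐treated and 1.51 in control germ cells for Cdkn1c, and 1.40 in FGF9‐treated and 1.26 in control germ cells for Ccnd2, where counting error alone gives about 1. For Cdkn2d it was 0.988 in FGF9‐treated and 1.04 in control germ cells. At an equal relative spread this measure grows with the mean, so it does not rank the genes by relative spread. The mean was 1.49 UMIs in FGF9‐treated and 0.885 in control germ cells for Ccnd2. For Ccnd1 it was 0.276 in FGF9‐treated and 0.0819 in control germ cells, with variance over mean of 1.26 and 1.12. The highest count in a thinned germ cell was 9 UMIs of Cdkn1c in the FGF9‐treated and 13 in the control library.

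Of the 10 genes, 7 reached 10 CPM in a library and were counted against 1.5-fold. Ccnd1, Ccnd2 and Cdkn1c were higher by at least 1.5-fold, 3 of 7, and 0 were lower by as much. Among all 8877 genes with 10 CPM in a library, 4.49% were higher and 4.17% lower by at least 1.5-fold. At 2-fold, Ccnd1 alone was higher and 0 were lower, beside 1.66% of all genes higher and 0.912% lower. The median log2 ratio was 0.37 over the 7 genes and -0.03 over all genes counted. The 3 genes under 10 CPM were Cdk6, Cdkn1b and Cdkn2c.

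**Figure D3:**
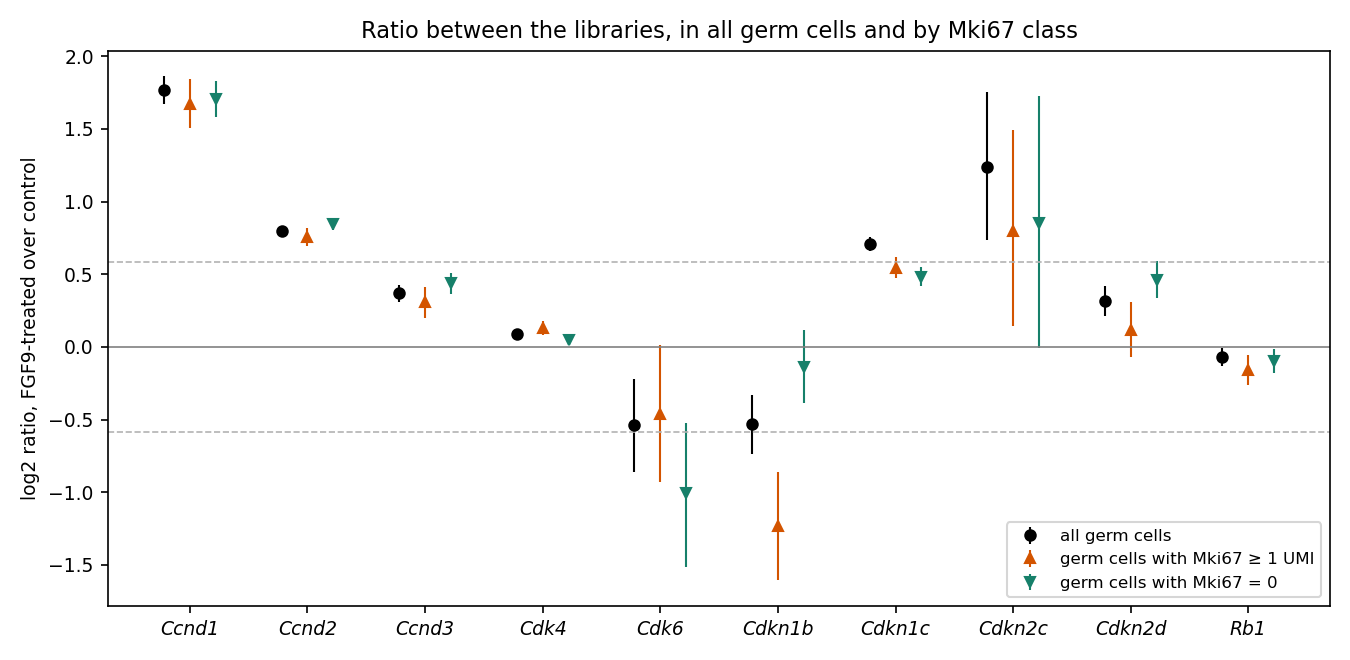
Log2 ratio of FGF9‐treated over control CPM for each gene in all germ cells (black circles), germ cells with at least 1 UMI of Mki67 (orange triangles) and germ cells with none (green triangles); bars are 95% intervals of counting error and dashed lines mark 1.5-fold. Ccnd1 and Ccnd2 lie above the upper line in all 3 classes, Cdkn1c (0.71) does so only when all germ cells are pooled, and Cdkn1b splits into -1.23 in cells with Mki67 and -0.14 in cells without.

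Mki67, a gene transcribed in cycling cells, was read at 1 UMI or more in 1715 of 4537 FGF9‐treated germ cells, 37.8% (36.4 to 39.2), and in 831 of 4157 control germ cells, 20.0% (18.8 to 21.2). The members were therefore compared within each class of cells. The positive class was not matched for Mki67 itself, which stood at 336 CPM in its FGF9‐treated and 167 CPM in its control cells. The negative class was not matched for depth, with a median of 11696 UMIs in FGF9‐treated and 14297 in control cells. It was not free of cycling genes, as Top2a stood at 93.0 CPM in its FGF9‐treated and 98.4 CPM in its control cells. The D cyclin differences were present in both classes. Ccnd1 had log2 ratios of 1.67 (1.51 to 1.85) in Mki67-positive and 1.70 (1.58 to 1.83) in Mki67-negative cells, and Ccnd2 had 0.76 (0.70 to 0.82) in positive and 0.85 (0.81 to 0.89) in negative cells. In Mki67-negative cells Ccnd1 stood at 51.1 CPM in the FGF9‐treated and 15.7 CPM in the control library. Cdkn1c fell short of 1.5-fold within each class, with 0.55 (0.47 to 0.62) in positive and 0.48 (0.42 to 0.55) in negative cells, and giving the FGF9‐treated library the control's shares of the 2 classes brought its ratio to 0.51. Cdkn2d had 0.12 (-0.07 to 0.31) in positive and 0.46 (0.34 to 0.59) in negative cells. Rb1 had -0.16 (-0.26 to -0.05) in positive and -0.10 (-0.18 to -0.02) in negative cells, and Cdk4 had 0.13 (0.08 to 0.18) in positive and 0.046 (0.011 to 0.080) in negative cells.

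Within a library, Cdkn1c set Mki67-positive cells apart more than any D cyclin did. Cdkn1c was higher in Mki67-positive cells of both libraries, 174 CPM against 95.6 CPM in Mki67-negative cells of the FGF9‐treated library and 119 CPM against 68.3 CPM in the control library. The log2 ratios of positive over negative cells were 0.86 (0.80 to 0.92) in FGF9‐treated and 0.80 (0.72 to 0.88) in control cells. Across cells with 0, 1, 2 to 4, 5 to 9 and 10 or more UMIs of Mki67, Cdkn1c stood at 95.6, 119, 161, 198 and 216 CPM in the FGF9‐treated library and at 68.3, 74.4, 125, 197 and 226 CPM in the control library. At 5 or more UMIs of Mki67 the intervals of the libraries overlapped. The median depth of these cells increased along the same classes, to 21643 UMIs in the FGF9‐treated and 25498 in the control library at 10 or more. The part of depth was not tested beyond thinning the cells in which Mki67 is read, which gave 0.77 in FGF9‐treated and 1.01 in control cells.

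Ccnd2 ran the other way. It stood at 309, 331, 290, 271 and 239 CPM over the same 5 classes in the FGF9‐treated library and at 172, 183, 156, 149 and 140 CPM in the control library, so that it was lowest in the cells with the most Mki67 in both. The log2 ratio of Mki67-positive over negative cells was -0.13 (-0.17 to -0.09) in FGF9‐treated and -0.04 (-0.10 to 0.02) in control cells. Ccnd1 was higher in Mki67-positive cells, by 0.32 (0.23 to 0.41) in FGF9‐treated and 0.35 (0.16 to 0.54) in control cells. Rb1 was higher by 0.19 (0.10 to 0.28) in FGF9‐treated and 0.25 (0.15 to 0.35) in control cells. Cdkn2c, which is sparse, gave 1.79 (1.16 to 2.46) in FGF9‐treated and 1.84 (0.97 to 2.73) in control cells, and Cdk6 gave 1.14 (0.62 to 1.68) in FGF9‐treated and 0.59 (0.15 to 1.02) in control cells. Several of these values depended on the gene used to mark cycling cells. With Top2a in place of Mki67, of which 1 UMI or more was held by 69.2% of FGF9‐treated and 71.3% of control germ cells, Ccnd1 gave 0.20 in FGF9‐treated and 0.0046 in control cells, and Cdk6 gave 1.74 in FGF9‐treated and 0.0096 in control cells. Cdkn1c gave 0.58 in FGF9‐treated and 0.22 in control cells, and Ccnd2 gave -0.05 in FGF9‐treated and 0.026 in control cells. By Mki67 class, Ccnd2 made up 66.9 to 69.3% of D cyclin UMIs in all 4 combinations of library and class. The share of Ccnd1 was 15.1% (14.5 to 15.7) in positive and 11.5% (11.0 to 12.0) in negative FGF9‐treated cells, and 8.05% (7.24 to 8.91) in positive and 6.25% (5.83 to 6.68) in negative control cells.

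**Figure D4:**
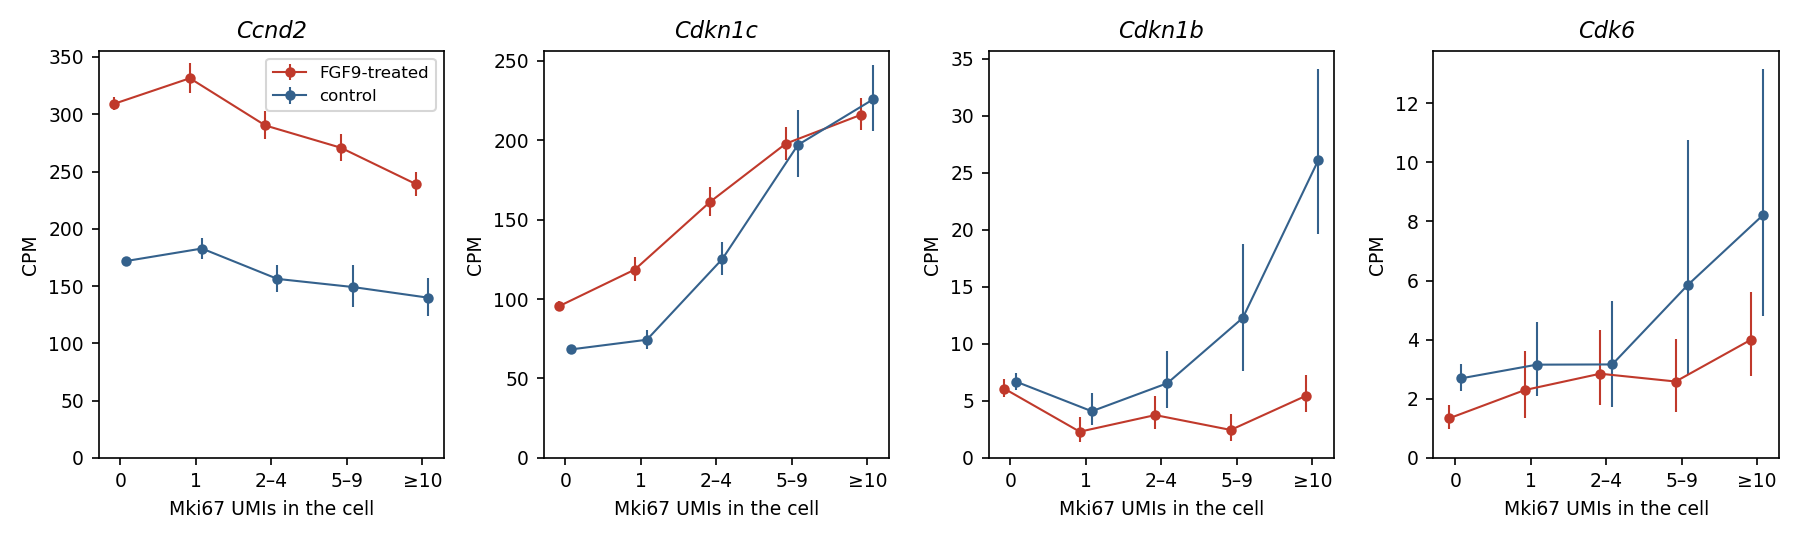
CPM of Ccnd2, Cdkn1c, Cdkn1b and Cdk6 (vertical axes, each starting at 0) in germ cells grouped by the number of Mki67 UMIs in the cell, with red for the FGF9‐treated and blue for the control library; bars are exact Poisson 95% intervals. Ccnd2 is higher in the FGF9‐treated library throughout, Cdkn1c reaches about the same level in both at the right, and Cdkn1b reaches 26.1 CPM in control cells with 10 or more Mki67 UMIs against 5.46 CPM in FGF9‐treated cells.

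Cdkn1b differed between the libraries chiefly in Mki67-positive cells. In Mki67-positive cells it stood at 3.53 CPM in the FGF9‐treated and 8.29 CPM in the control library, a log2 ratio of -1.23 (-1.61 to -0.86). In Mki67-negative cells it stood at 6.08 CPM in the FGF9‐treated and 6.68 CPM in the control library, a log2 ratio of -0.14 (-0.39 to 0.11). The intervals of the 2 classes do not overlap. In cells with 10 or more UMIs of Mki67, Cdkn1b was read in 31 of 353 FGF9‐treated cells, 8.78% (6.04 to 12.2), with at most 3 UMIs in a cell and 5.46 CPM (3.98 to 7.30). In the control library it was read in 27 of 76 such cells, 35.5% (24.9 to 47.3), with at most 5 UMIs in a cell and 26.1 CPM (19.6 to 34.1). The median depth was 21643 UMIs in these FGF9‐treated and 25498 in these control cells. Grouping by Top2a, another gene of dividing cells, gave 4.13 CPM (3.23 to 5.20) in the 796 FGF9‐treated and 16.4 CPM (13.0 to 20.5) in the 187 control cells with 10 or more Top2a UMIs. With a limit of 1 UMI, however, the log2 ratio of Top2a-positive over negative control cells for Cdkn1b was -0.14, against 0.31 (0.02 to 0.60) with Mki67.

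Some of the genes also differed by some markers of the undifferentiated and progenitor state. In germ cells with UMIs of both Gfra1 and Ret, the GDNF receptor genes of SSC, Cdkn1b was higher than in the other germ cells, by 0.44 (0.12 to 0.76) on the log2 scale in the FGF9‐treated library (1687 cells with both) and by 0.88 (0.54 to 1.20) in the control library (415 cells with both). Ccnd2 was higher by 0.17 (0.13 to 0.21) in the FGF9‐treated and 0.26 (0.18 to 0.34) in the control library. Cells with both receptor genes were deeper, with medians of 14428 UMIs against 12348 in the FGF9‐treated and 15948 against 14746 in the control library. Cdkn1b also gave 0.05 (-0.28 to 0.37) in FGF9‐treated and 0.35 (0.05 to 0.65) in control cells with Sox3. With Stra8 it gave -0.38 (-1.04 to 0.21) in FGF9‐treated and 0.44 (0.04 to 0.81) in control cells. With Sox3, Ccnd1 was lower than in cells without it, by a log2 ratio of -0.19 (-0.28 to -0.09) in the FGF9‐treated and -0.74 (-0.92 to -0.57) in the control library, and Ccnd2 by -0.19 (-0.23 to -0.15) in the FGF9‐treated and -0.35 (-0.41 to -0.30) in the control library. Ccnd3 gave -0.10 (-0.18 to -0.02) in the FGF9‐treated and -0.02 (-0.11 to 0.07) in the control library. Splits by other markers showed lower D cyclin levels only in part. With Neurog3, also a progenitor gene, Ccnd1 gave -0.05 (-0.17 to 0.07) in FGF9‐treated and -0.08 (-0.25 to 0.09) in control cells. Ccnd2 gave -0.04 (-0.09 to 0.01) and -0.13 (-0.19 to -0.08), and Cdk6 0.20 (-0.44 to 0.80) and 0.43 (0.02 to 0.84), in the same order. With Kit, Ccnd1 gave 0.18 (-0.02 to 0.38) and -0.05 (-0.28 to 0.18), while Ccnd2 was lower in both, with -0.23 (-0.33 to -0.13) and -0.11 (-0.18 to -0.04). With Stra8, Ccnd2 gave 0.06 (-0.01 to 0.12) and -0.16 (-0.25 to -0.08). In correlations over germ cells thinned to 5000 UMIs (4515 FGF9‐treated and 4141 control cells), no gene reached a coefficient of 0.2 with any D cyclin or Cdkn1c in both libraries, so none is named as alike.

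Genes next to the members in the pathway were taken from lists, with counts over genes that reached 10 CPM. Of 17 targets of E2F, 8 were higher by at least 1.5-fold and 0 lower, with a median log2 ratio of 0.56. The largest ratios were 1.83 for Rrm2, a subunit of ribonucleotide reductase, 1.14 for Ccna2, the S phase cyclin, 1.03 for Uhrf1 and 0.84 for Tk1. Of 8 partners at the G1/S step 2 were higher and 0 lower (median 0.14). They were Cdc25a, a phosphatase that activates CDK2, with 30.3 CPM in FGF9‐treated and 9.78 CPM in control germ cells (1.63), and Ccne1, a cyclin E gene, with 15.6 CPM in FGF9‐treated and 7.53 CPM in control germ cells (1.05). Of 8 measured genes among 12 pocket proteins and E2F factors, 2 were higher and 0 lower (median 0.09), E2f1 with 0.90 and Rbl1 with 0.60, while Tfdp2 had -0.47. Of 4 other kinase inhibitors 1 was higher, Cdkn3 with 0.82. Cdkn1a (p21) had 0.53, Cdkn2b -0.31 and Cdkn2a -0.16. Cdkn2a stood at 118 CPM in FGF9‐treated and 131 CPM in control germ cells, well above Cdkn2c and Cdkn2d. Germ cells held Cdkn1a at 22.7 CPM in the FGF9‐treated and 15.7 CPM in the control library. Feeder cells held it at 1391 CPM in the FGF9‐treated and 1227 CPM in the control library. Of 6 measured genes for turnover of D cyclins and p27 among 8 listed, 0 passed 1.5-fold either way (median 0.03), the largest being -0.39 for Fbxo31, an adaptor for cyclin D1 breakdown. Of 4 upstream factors measured among 5 listed, 0 were higher and 1 was lower (median -0.32). This was Foxo1, a forkhead factor gene, with 120.4 CPM in FGF9‐treated and 182 CPM in control germ cells (-0.59), and Foxo3 had -0.47. The share of all genes past these limits, 4.49% higher and 4.17% lower, is the background for each of these counts.

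These counts are over all germ cells, of which 37.8% in the FGF9‐treated and 20.0% in the control library held Mki67, so the lists were also read within the Mki67 classes, a step added after the data were seen. The median log2 ratio of the 17 E2F targets was 0.65 in Mki67-positive and 0.19 in Mki67-negative cells, beside -0.05 in positive and -0.03 in negative cells over all genes counted. For the 8 G1/S partners it was 0.26 in positive and -0.01 in negative cells, for the 8 pocket proteins and E2F factors 0.15 in positive and 0.02 in negative cells, and for the 4 other kinase inhibitors 0.20 in positive and -0.28 in negative cells. Cdkn3, a phosphatase gene, had 0.64 (0.50 to 0.79) in positive and -0.24 (-0.45 to -0.04) in negative cells. Ccna2 had 0.86 (0.79 to 0.94) in positive and 0.11 (-0.01 to 0.22) in negative cells, and Rbl1 had 0.77 (0.50 to 1.04) in positive and 0.07 (-0.18 to 0.31) in negative cells. Cdc25a, by contrast, was higher in both classes, with 1.39 (1.22 to 1.57) in positive and 0.94 (0.74 to 1.15) in negative cells. Foxo1 was lower in both, with -0.63 (-0.70 to -0.56) in positive and -0.54 (-0.60 to -0.49) in negative cells. Mki67-positive cells held more Mki67 in the FGF9‐treated library, so ratios in this class do not hold the amount of cycling equal. At 1, 2 to 4, 5 to 9 and 10 or more Mki67 UMIs, the E2F targets summed to 1758, 2556, 2931 and 2917 CPM in FGF9‐treated cells. In control cells they summed to 1292, 1731, 2290 and 2393 CPM. In cells with 0 Mki67 UMIs the E2F targets summed to 1337 CPM in the FGF9‐treated and 1153 CPM in the control library.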

How the data were processed

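Single cells of 1 FGF9‐treated and 1 control culture were measured by droplet RNA sequencing. The deposited matrices hold raw UMI counts per gene and barcode, made by the authors with Cell Ranger (version 3.1.0 in the matrix header) against mm10; Seurat 3.1 is named for their later steps, which were not used. The counts precede the authors' cell filter. The filter described above was applied, UMIs were summed over cells of a class, and CPM, log2 ratios (exact conditional binomial intervals), CPM intervals (exact Poisson) and shares (Clopper-Pearson) were computed at 95%, all of counting error only. PCR duplicates are removed by the UMIs, but the spread between cultures is not measured. The study's methods state that the cells came from several mice, which are not told apart here. No p-value can be given with 1 library per treatment. A gene counted as past a limit had 10 CPM in a library and a 1.5-fold ratio. No doublet caller was used, and doublets remain among the cells; an alternative leaves out barcodes over 2.5 times the median UMIs. Shares of cells with a UMI were read in cells thinned at random to 5000 UMIs. The ratios and the thinning were tested on simulated data. Coordinates and transcripts came from GENCODE M21, an annotation of the same build. All 10 genes are named; of each further list, up to 4 with the largest ratios. The genes and lists were chosen with earlier results of these data known. Alternatives covered the cell filter, depth, scaling (TMM in edgeR 4.0.16, DESeq2 1.42.0, R 4.3.3), the weight of cells and the marker of cycling; those on 5 UMIs of Vim and S100a6 and on transcript length, and the grouping by numbers of Top2a UMIs, were added after the data were seen. Scripts ran under Python 3.11.15 with scipy 1.17.1, numpy 2.4.6 and pandas 2.3.3.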

Additional observations from a re-analysis of the deposited data

Results flagged for a closer look

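Some ratios pointed in opposite directions in germ and feeder cells, and none of these differences was tested. The log2 ratio of FGF9‐treated over control was -0.54 in germ cells and 0.29 (-0.34 to 0.97) in feeder cells for Cdk6. For Cdkn1b it was -0.53 in germ cells and 0.37 (-0.29 to 1.07) in feeder cells. For Cdkn2d it was 0.31 in germ cells and -0.10 (-0.74 to 0.58) in feeder cells. For Cdkn1c it was 0.71 in germ cells and -1.14 (-2.11 to -0.16) in feeder cells, from 22 FGF9‐treated and 18 control feeder cell UMIs. Cdkn1c in feeder cells was 8.95% of its germ cell level in the FGF9‐treated and 32.1% in the control library, beside medians of 5.89% in the FGF9‐treated and 21.6% in the control library for the germ cell markers, whose part was not tested.

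The difference between Mki67-positive and negative germ cells also had opposite signs in the libraries for a pair of genes, likewise without a test. For Cdkn1b the log2 ratio of positive over negative cells was -0.78 (-1.13 to -0.45) in the FGF9‐treated and 0.31 (0.02 to 0.60) in the control library. For Cdkn2d it was -0.33 (-0.47 to -0.20) in the FGF9‐treated and 0.01 (-0.17 to 0.19) in the control library.

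Barcodes outside the filter, 1359 in the FGF9‐treated and 1124 in the control library and not used above, carried ratios of their own. The log2 ratio there was 2.96 (2.31 to 3.68) for Ccnd1, from 197 FGF9‐treated and 21 control UMIs. It was 1.10 (0.88 to 1.33) for Ccnd2, 0.37 (0.01 to 0.74) for Ccnd3, 0.33 (0.11 to 0.56) for Cdk4 and 0.72 (0.33 to 1.12) for Cdkn1c.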

How the results depend on the processing

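No paired analysis was possible because each treatment has 1 library and the labels give both the number 1, and leaving out a replicate is not possible for the same reason. The 10 log2 ratios between libraries kept their sign under all 12 alternatives, and 112 of 120 values stayed inside the main interval. In cells thinned to 5000 UMIs the ratio was 0.75 for Ccnd2, 0.058 for Cdk4, -1.10 for Cdk6 and 0.62 for Cdkn1c. TMM scaling gave 0.83 for Ccnd2 and 0.12 for Cdk4. Cdkn1c was 0.65 as a mean over cells and 0.51 with the control shares of the Mki67 classes, which is under 1.5-fold. The count of higher genes was 1 at 2-fold in place of 3 at 1.5-fold, and 4 without a CPM minimum, and the count of lower genes was 0 under every setting. The D cyclin shares stayed inside their intervals in 44 of 54 values. Ccnd1 gave 13.7% of D cyclin UMIs in FGF9‐treated germ cells with at most 10% mitochondrial UMIs and 12.7% in thinned cells. In thinned control cells Ccnd2 gave 69.3% and Ccnd3 24.3%. Divided by transcript length, Ccnd1 gave 15.2% in FGF9‐treated and 7.32% in control cells, Ccnd2 46.6% in FGF9‐treated and 44.1% in control cells, and Ccnd3 38.2% in FGF9‐treated and 48.6% in control cells. For the ratio of Mki67-positive over negative cells, 30 of 80 values moved outside their intervals, 15 of them with Top2a, which also turned the sign of Cdkn1b in control cells (-0.14). One of the 30, Ccnd2 in control cells with Top2a (0.026), changed sign as well, though its main interval includes 0. The cause was not tested. Depth limits Cdkn2c and Cdk6 most, with 48 to 205 UMIs in a library.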
